A study of Brassica oleracea with 12 samples.

Results

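The comparison set the green margin of the leaf at stage S3 (S3_S) against the leaf at stage S2, in kale (Brassica oleracea var. acephala) of the cultivar JC007-2B, whose leaves turn bicolored as they develop. Its members were chosen by label and not by any measured value: the 3 S3_S libraries and the 3 S2 libraries, 6 of the 12 libraries of the series. S3_S libraries were made from the margin alone, which is green at S3 while the center is red. S2 libraries were made from the whole leaf with its veins removed, at a stage when the center was red and the margin green. Polyadenylated RNA was read as paired ends, and the deposited table gives FPKM, a level scaled to transcript length and to the mapped fragments of each library, for 45714 gene entries. Both groups share the cultivar, and no treatment or genotype separates them. Leaf part and leaf stage change together and their contributions cannot be told apart. Whether separate plants stand behind the 3 libraries of each group is not stated in the labels, so p-values reflect only how far these libraries differ, which may be technical variation.

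A leaf blade grows first by cell division and then by cell expansion. Ribosome production, loosening and synthesis of the cell wall and auxin signalling are high in growing tissue, while the photosynthetic apparatus builds up as cells mature. Later, in shaded or aging tissue, autophagy and the breakdown of amino acids recover nutrients. In bicolored kale the red color comes from anthocyanin, a flavonoid pigment, and the green color from chlorophyll.

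The fit took in the 27272 genes (59.7% of those listed) that reached 1 FPKM in 3 or more of the 12 libraries. All differences are given on log2(FPKM + 1), a scale that shrinks the changes of low genes. Summed FPKM lay between 428035 and 448249 in the 6 libraries, and sequencing depth relative to S2 replicate 1 lay between 0.796 and 1.15. The absolute depth is unknown. S3_S replicate 3 stood apart from its group: its log2 values correlated at 0.855 and 0.852 with the other S3_S libraries, at 0.912 with S1 replicate 3, a library of the earlier red leaf, while S3_S replicates 1 and 2 correlated at 0.904 with each other. Whether this library holds what its label says, or tissue of another kind as well, cannot be told from these values, and every S3_S mean that includes it carries that doubt. Class medians are therefore also given without S3_S replicate 3. S2 replicate 1 correlated at 0.900 and 0.856 with the other S2 libraries, which correlated at 0.921 with each other. The S2 group was not uniform either: S2 replicate 1 correlated at 0.903 and 0.895 with S3_S replicates 1 and 2. S2 replicate 3 correlated at 0.952 with replicate 1 of the red center at S3, above its values with its own group.

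Single genes rarely separated the groups beyond the spread of the libraries. limma called 2 genes at a Benjamini-Hochberg adjusted p under 0.05, both higher in S3_S (0.00733% of the genes tested), and 0 lower (0%). At an unadjusted p under 0.05, 1492 genes (5.47%) were higher and 775 (2.84%) lower, and the lowest adjusted p outside the 2 called genes was 0.129. The values of the groups did not overlap for 3063 genes (11.2%) that were higher in S3_S and for 1263 (4.63%) that were lower. The median log2 fold change of all genes was 0.10, with 60.1% of genes above 0 and 39.9% below. Of the genes at an unadjusted p under 0.05, 65.8% were higher in S3_S. That share was 49.6% after median-of-ratios scaling (1049 genes higher, 1065 lower), so the split depends on the scaling.

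Both called genes were listed at 0 in every S2 library, and they were the 2 entries listed at 0 in all S2 libraries with at least 5 FPKM in all S3_S libraries. The reverse pattern was met by 0 entries. Bo7g031620, a homeodomain-like superfamily protein, with a fold found in many DNA-binding proteins, had 13.1, 18.2 and 14.3 FPKM in S3_S libraries, against 0, 0 and 0 FPKM in S2 libraries (limma, adjusted p = 0.0138). The other groups had it too, with 17.4, 14.7 and 16.6 FPKM in the red center at S3 (S3_C) and 15.1, 0 and 17.2 FPKM in S1 libraries. Bo4g144190, named here after its values were seen, has no product description, and the deposited annotation gives it acyltransferase activity. It had 15.7, 11.3 and 8.74 FPKM in S3_S libraries, against 0, 0 and 0 FPKM in S2 libraries (limma, adjusted p = 0.0423). In S3_C libraries it stood at 0, 3.46 and 8.59 FPKM and in S1 libraries at 0, 4.41 and 5.09 FPKM. A value listed at 0 can be a failed estimate and does not show that the transcript was missing, so no fold is given. Neither call held when any 1 of the 6 libraries was left out, when adjusted p lay between 0.0584 and 0.122 for Bo7g031620 and between 0.0680 and 0.355 for Bo4g144190.

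The lowest value relative to S2 belonged to Bo1g010620, a subunit b or b' of the chloroplast ATP synthase, the enzyme that makes ATP from the proton gradient across the thylakoid membrane. Its transcript had 10.7, 14.4 and 11.7 FPKM in S3_S libraries, against 220.3, 577 and 756 FPKM in S2 libraries. Every S3_S library lay far below every S2 library, and the log2 fold change was -5.12 ± 0.46 (SE, 3 libraries each), but the adjusted p of limma was 0.129. S2 replicate 1, the lowest of its group, decided that call: without it the log2 fold change was -5.64 and the adjusted p 0.0224. Of 24 tested genes with the ATP synthesis term, which is not limited to the chloroplast, 15 had a higher mean in S3_S and the median was 0.22, and 0.05 without S3_S replicate 3. That list was added after values were seen. Its summed level was 781, 866 and 923 FPKM in S3_S libraries, against 1222, 1390.3 and 1485 FPKM in S2 libraries, Bo1g010620 included. The separation of these sums rested on that gene, and without it the sums of the groups overlap. For Bo1g010620, S3_C libraries had 26.2, 25.4 and 256 FPKM and S1 libraries 20.8, 69.4 and 105 FPKM, and the gene varied widely within those groups too.

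**Figure D1:**
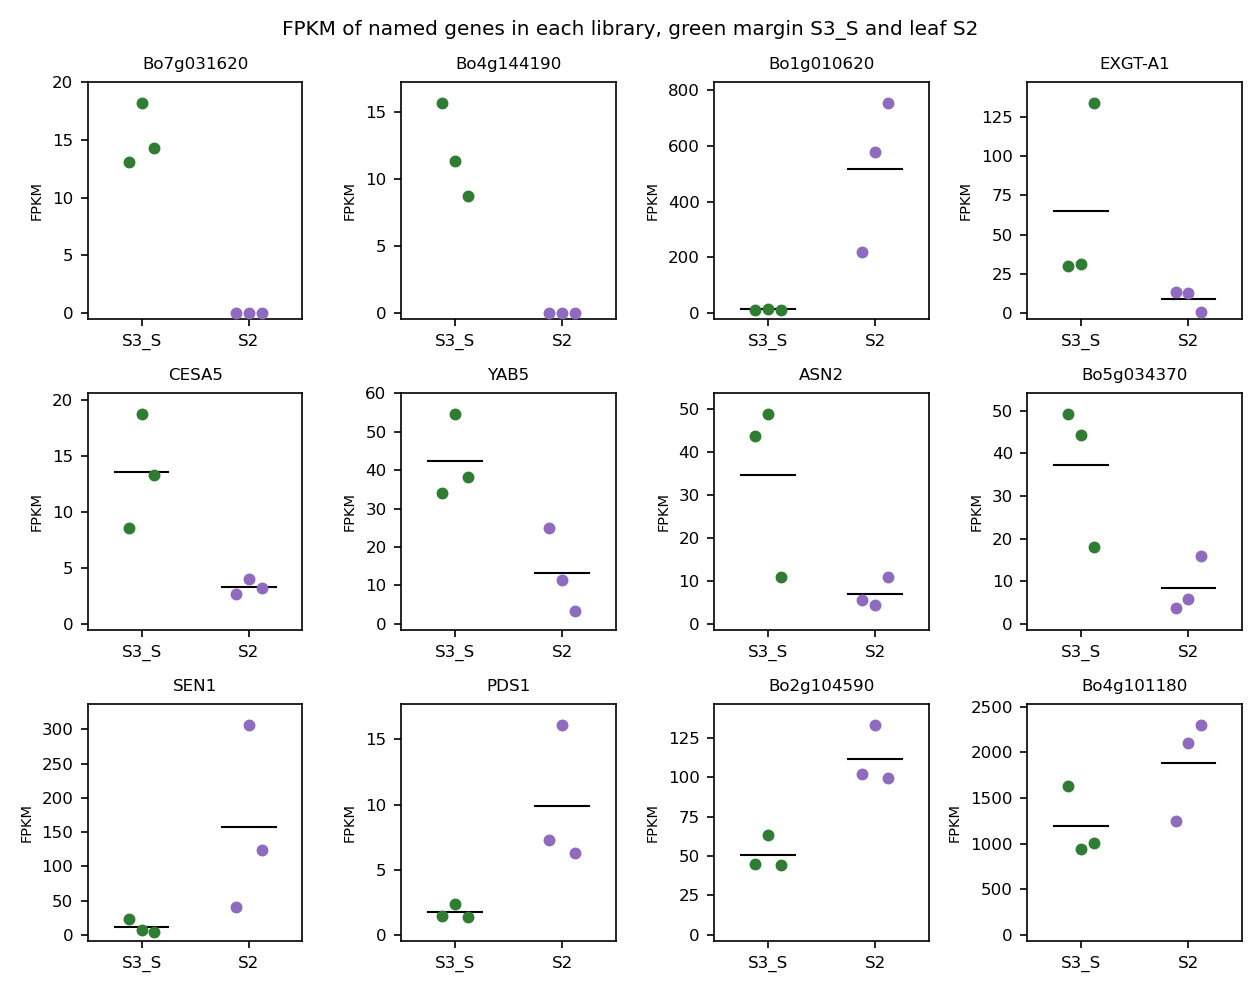
FPKM of 12 named genes in each of the 3 S3_S libraries (left, green) and the 3 S2 libraries (right, purple), each panel with its own linear axis; points are libraries in order of replicate number and black lines are group means, left out where a group is listed at 0. Bo7g031620 and Bo4g144190 lie at 0 in all S2 libraries, Bo1g010620 lies between 10.7 and 14.4 FPKM in S3_S libraries, and the 2 groups overlap in 1 panel only, that of Bo4g101180.

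Genes of the machinery of protein synthesis mostly had higher means in the margin. Of 406 tested genes annotated as structural constituents of the ribosome (495 listed), 370 (91.1%) had a higher mean in S3_S (means of log2 values, here and below), beside 60.1% of all genes, and their median log2 fold change was 0.55, against 0.10 for all genes. Of these members 0 were called. At an unadjusted p under 0.05, 130 members (32%) were higher and 0 lower, beside 5.47% and 2.84% of all genes. The 130 became 81 without S3_S replicate 3 and 73 without S2 replicate 2. With all 12 libraries in the fit, where the other groups also set the spread, 5 of the 406 were higher and 1 lower, beside 556 higher among all 27272 genes, so the excess over all genes at this p was not seen there. For 196 members (48.3%) every S3_S library lay above every S2 library, beside 11.2% of all genes. In these bulk samples, more cells of a type and more RNA per cell cannot be told apart.

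Summed over the class, ribosomal protein transcripts reached 14554, 15626 and 20246 FPKM in S3_S libraries, against 11764, 11966 and 10898 FPKM in S2 libraries. All 3 sums of the margin exceeded all 3 of the S2 leaf, and S3_S replicate 3 had the highest. Without that library the median log2 fold change was 0.39 with 346 members higher, and with median-of-ratios scaling it was 0.45 with 350 higher. S3_C libraries summed to 11604, 9793 and 14985 FPKM, and S1 libraries to 10489, 28886 and 38175 FPKM.

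The members named here were picked for a small p, for abundance or, with Bo3g036600, after values were seen. They therefore add no support to the class counts. The smallest p among them was that of Bo9g009210, the 40S ribosomal protein S27 of the small cytosolic subunit, with 14, 14.4 and 19.4 FPKM in S3_S libraries, against 6.86, 7.62 and 7.2 FPKM in S2 libraries. Its log2 fold change was 1.03 ± 0.19 (SE; limma, adjusted p = 0.577). The 60S protein L38 (Bo3g036600), of the large cytosolic subunit, had 99.8, 126 and 144 FPKM in S3_S libraries, against 65.3, 70.8 and 54.5 FPKM in S2 libraries. The most abundant member, Bo1g047930, which carries ribosome terms but no product description, stood at 227, 301 and 387 FPKM in S3_S libraries, against 206, 161 and 111 FPKM in S2 libraries. In each of these genes the groups did not overlap. The acidic stalk protein P0 of the large subunit (Bo1g144700), which the deposited terms place under ribosome biogenesis and not in this class, had 10.2, 10.6 and 17.1 FPKM in S3_S libraries, against 5.32, 6.22 and 5.54 FPKM in S2 libraries, and again the groups were apart.

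The difference was larger for ribosomal proteins of the cytosol than for those of the chloroplast, although this split was made after values were seen and was not tested. Of 66 entries named as 40S or 60S proteins, 66 had a higher mean in S3_S, with a median log2 fold change of 0.69 and of 0.47 without S3_S replicate 3. Of 21 ribosomal proteins annotated to the chloroplast, 17 had a higher mean in S3_S, with a median of 0.22 and of 0.07 without S3_S replicate 3.

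Classes around the ribosome lay on the same side. Ribosome biogenesis genes, which process ribosomal RNA and assemble the subunits, had 77 of 94 members higher in S3_S and a median log2 fold change of 0.43. There 24 members (25.5%) were higher at an unadjusted p under 0.05 and 0 lower, beside 5.47% and 2.84% of all genes. The 24 became 12 without S3_S replicate 3, 10 without S2 replicate 2, 12 without S2 replicate 3 and 6 with all 12 libraries in the fit. A ribonuclease P family protein of this class (Bo4g019650) had 13.2, 17.5 and 17.3 FPKM in S3_S libraries, against 8.78, 8.05 and 6.9 FPKM in S2 libraries. Translation elongation factors had 20 of 22 members higher with a median of 0.48. Among them an elongation factor 1-alpha locus (Bo8g112750;Bo8g112760), which delivers aminoacyl-tRNA to the ribosome and here merges a pair of annotated genes, had 93.3, 80.7 and 162 FPKM in S3_S libraries, against 51.8, 61.7 and 55.9 FPKM in S2 libraries. Initiation factors (57 of 68 higher, median 0.27), aminoacyl-tRNA synthesis (45 of 52 higher, median 0.28) and protein folding (115 of 131 higher, median 0.39) were above the all-gene median as well. Without S3_S replicate 3 the medians of these lists were 0.33 for elongation, 0.26 for initiation, 0.11 for aminoacyl-tRNA synthesis and 0.27 for folding. The elongation, initiation, aminoacyl-tRNA and folding lists were added after values were seen. The proteasome, which degrades proteins, had 33 of 40 members higher but a median of only 0.18, and of 0.08 without S3_S replicate 3, near the all-gene values.

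**Figure D2:**
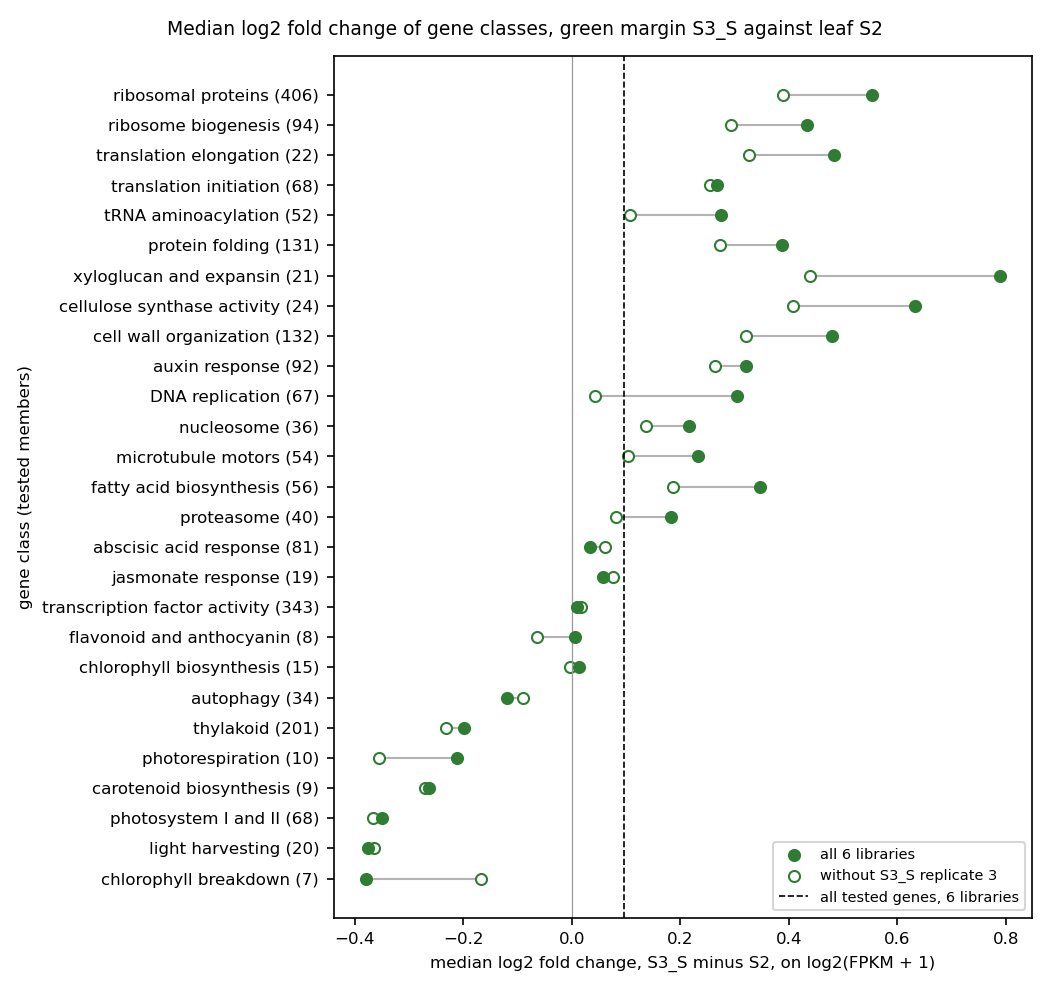
Median log2 fold change of gene classes, S3_S minus S2 (horizontal axis, log2(FPKM + 1) scale), with all 6 libraries (filled) and without S3_S replicate 3 (open); the number of tested members is in brackets and the dashed line is the median of all tested genes (0.10). Ribosomal proteins lie at 0.55 with and 0.39 without that library, DNA replication at 0.31 and 0.04, and photosystem and light-harvesting classes are below 0 in both. The elongation, initiation, aminoacylation, folding, cellulose synthase and transcription factor lists were added after values were seen.

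Genes of the cell wall formed the next group that was mostly higher in the margin. Of 132 tested members of cell wall organization (276 listed), 111 (84.1%) had a higher mean in S3_S, with a median log2 fold change of 0.48, and of 0.32 without S3_S replicate 3. At an unadjusted p under 0.05, 27 members (20.5%) were higher and 3 lower (2.27%), beside 5.47% and 2.84% of all genes, and the 27 became 14 without S2 replicate 2 and 16 with all 12 libraries in the fit. With no filter on low values the median over all 276 was 0.06, beside 0.02 for all genes, with 171 higher and 81 lower. Of these members 0 were called. The summed FPKM of the class did not separate the groups, with 3321, 5421 and 3352 FPKM in S3_S libraries, against 3349, 3584 and 2961 FPKM in S2 libraries. The most abundant one, a pectin acetylesterase (Bo2g127040), had lower values in the margin, at 1037, 1068 and 897 FPKM in S3_S libraries, against 1239, 1612 and 1081 FPKM in S2 libraries.

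Wall loosening genes included some of the widest differences. EXGT-A1, a xyloglucan endotransglucosylase that cuts and rejoins the chains linking cellulose fibrils, had 29.8, 31.1 and 134 FPKM in S3_S libraries, against 13.3, 12.5 and 0.603 FPKM in S2 libraries. The groups did not overlap, and the log2 fold change was 2.92 ± 0.98 (SE) and 2.22 without S3_S replicate 3, whose value was the highest. ATEXPA3, an expansin of the type that loosens walls without cutting them, had 10.6, 10.9 and 23.3 FPKM in S3_S libraries, against 7.26, 2.51 and 0.475 FPKM in S2 libraries. The deposited terms place it under cell wall organization. Over the 21 tested genes with xyloglucan transferase or wall loosening terms, which do not include it, 19 had a higher mean in S3_S, with a median of 0.79, and of 0.44 with 16 higher when S3_S replicate 3 was left out. Only 2 of them (9.52%) were higher at an unadjusted p under 0.05 and 0 lower, beside 5.47% and 2.84% of all genes. The groups did not overlap for 1 higher member (4.76%), EXGT-A1, and for 0 lower ones, beside 11.2% and 4.63% of all genes. The most abundant of the family, Bo7g114380, rested on 1 library, with 394, 2088 and 136 FPKM in S3_S libraries, against 579.5, 347 and 315 FPKM in S2 libraries. Its log2 fold change was 0.28, and it was -0.78 without S3_S replicate 2.

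Cellulose synthases, which spin the fibrils themselves, mostly had higher means too. CESA5, in Arabidopsis a subunit of the primary wall complex, had 8.55, 18.8 and 13.2 FPKM in S3_S libraries, against 2.64, 3.96 and 3.24 FPKM in S2 libraries, with a log2 fold change of 1.71 ± 0.30 (SE; limma, adjusted p = 0.577). A further cellulose synthase (Bo9g018320) had 39.1, 55.2 and 31.6 FPKM in S3_S libraries, against 12.9, 13.6 and 21.9 FPKM in S2 libraries. In both genes every margin library lay above every S2 library. Over the 24 tested genes with cellulose synthase activity, a list added after values were seen, 18 had a higher mean in S3_S and 6 a lower one. The median was 0.63, with 0.41 without S3_S replicate 3 and 0.13 with no filter on low values. Bo3g083880, a hexosyltransferase of the wall class, had 27.3, 27.2 and 33.1 FPKM in S3_S libraries, against 10.6, 11 and 16.9 FPKM in S2 libraries, also without overlap.

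Auxin response genes mostly had higher means as well. Auxin is a hormone that drives cell expansion and patterning, and its response genes include Aux/IAA repressors, SAUR proteins and the auxin response factors that bind DNA. Of 92 tested members 69 (75.0%) had a higher mean in S3_S, with a median log2 fold change of 0.32, and 0 were called. At an unadjusted p under 0.05, 12 (13.0%) were higher and 2 (2.17%) lower, beside 5.47% and 2.84% of all genes. The 12 became 29 without S2 replicate 1, 4 without S2 replicate 2 and 5 without S2 replicate 3. The median was 0.26 without S3_S replicate 3 and 0.12 without S2 replicate 3. The auxin-responsive protein Bo8g002800 had 16.9, 29.1 and 26.5 FPKM in S3_S libraries, against 15.2, 5.86 and 1.5 FPKM in S2 libraries. A second one, Bo3g066910, had 39.9, 3.66 and 7.37 FPKM in S3_S libraries, against 3.23, 1.23 and 1.04 FPKM in S2 libraries, and its spread within the margin was wide. The auxin response factor Bo2g023110 had 26, 35.8 and 23.7 FPKM in S3_S libraries, against 15.1, 16.3 and 17 FPKM in S2 libraries. Auxin response factor 6 (Bo5g062810), in Arabidopsis an activator of auxin-responsive growth, had 22.4, 32.1 and 19.8 FPKM in S3_S libraries, against 15.9, 13.5 and 8.06 FPKM in S2 libraries. The groups of both factors were apart, but Bo2g023110 was picked for a small p and Bo5g062810 after its values were seen, so they add no support to the class. Over the class, the groups did not overlap for 15 higher members (16.3%) and 4 lower ones (4.35%), beside 11.2% and 4.63% of all genes. The most abundant member of the class (Bo5g093110) overlapped, with 276, 357 and 139 FPKM in S3_S libraries, against 215, 193 and 191 FPKM in S2 libraries.

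The higher means of DNA replication genes rested on S3_S replicate 3. DNA replication genes had 57 of 67 members with a higher mean and a median log2 fold change of 0.31, but 39 of 67 and 0.04 without that library. Their summed FPKM was 253, 268 and 412 in S3_S libraries, against 225, 250.3 and 249 in S2 libraries. At an unadjusted p under 0.05, 2 members (2.99%) were higher and 0 lower, no more than among all genes. The DNA polymerase delta subunit POLD4 was one of them, with 14, 20.2 and 18.9 FPKM in S3_S libraries, against 9.43, 8.81 and 11.5 FPKM in S2 libraries. Nucleosome genes, mainly histones, had 30 of 36 higher with a median of 0.22, and of 0.14 without S3_S replicate 3. Microtubule motors had 44 of 54 higher with a median of 0.23, and of 0.10 without it. Kinesin 2 (ATK2), a motor of the mitotic spindle in Arabidopsis, had 4.04, 8.74 and 5.98 FPKM in S3_S libraries, against 3.57, 1.77 and 1.59 FPKM in S2 libraries. Beta-6 tubulin (TUB6), a building block of microtubules, had 70.7, 111 and 119.7 FPKM in S3_S libraries, against 69.4, 55.9 and 47.4 FPKM in S2 libraries.

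Among regulators of leaf form, YAB5 stood out by level. YAB5 belongs to the YABBY transcription factors, which in Arabidopsis act on the lower side of leaves and in blade outgrowth. It had 34, 54.7 and 38.3 FPKM in S3_S libraries, against 25, 11.4 and 3.37 FPKM in S2 libraries, with a log2 fold change of 1.92 ± 0.62 (SE; limma, adjusted p = 0.577). Its relative YAB3, named after values were seen, had the opposite order at 9.72, 6.4 and 7.81 FPKM in S3_S libraries, against 10.6, 10.5 and 11.5 FPKM in S2 libraries. The growth regulator AIL7, of the AINTEGUMENTA-like family, was low in both groups, at 1.76, 2.34 and 1.69 FPKM in S3_S libraries, against 0.53, 0.435 and 0.266 FPKM in S2 libraries. Transcription factors as a class, a list of 343 added after values were seen, were balanced, with 175 members higher, 168 lower and a median of 0.01.

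Photosynthesis classes lay on the other side of 0. Of 20 tested light-harvesting genes, whose proteins bind chlorophyll and pass light energy to the reaction centers, 16 had a lower mean in S3_S and the median log2 fold change was -0.37. Photosystem I and II genes had 52 of 68 members lower and a median of -0.35, and thylakoid genes 136 of 201 lower and a median of -0.20. The medians were -0.36, -0.37 and -0.23 without S3_S replicate 3, and -0.49, -0.46 and -0.31 with median-of-ratios scaling. The photosystem and thylakoid medians were -0.17 and -0.05 without S2 replicate 3, and -0.62 and -0.42 without S2 replicate 1. At an unadjusted p under 0.05, 0 light-harvesting genes, 3 photosystem genes (4.41%) and 8 thylakoid genes (3.98%) were lower, beside 2.84% of all genes. At the same p 5 thylakoid genes (2.49%) were higher, beside 5.47% of all genes, and none of the other 2 classes. Of these members 0 were called. The 8 lower thylakoid genes became 48 without S2 replicate 1, with 1 called, and 2 without S2 replicate 3.

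Genes without overlap went both ways. The S3_S libraries all lay below the S2 libraries for 7 of the 68 photosystem genes (10.3%), 6 of the 201 thylakoid genes (2.99%) and 0 light-harvesting genes, beside 4.63% of all genes. They all lay above for 2 photosystem genes (2.94%), 11 thylakoid genes (5.47%) and 1 light-harvesting gene, beside 11.2% of all genes. Summed light-harvesting transcripts reached 9036, 5476 and 5693 FPKM in S3_S libraries, against 6521, 9189 and 12079 FPKM in S2 libraries. S3_S replicate 1 was above S2 replicate 1, and the other margin libraries were below all S2 libraries. Leaving out 1 library at a time gave medians between -0.65, without S3_S replicate 1, and -0.18, without S2 replicate 3. The most abundant member, the photosystem I chlorophyll-binding protein Bo4g101180, had 1631, 936 and 1005 FPKM in S3_S libraries, against 1245, 2103 and 2306 FPKM in S2 libraries. CURVATURE THYLAKOID 1B (Bo4g197370), which bends thylakoid membranes at the edges of their stacks, was picked after its values were seen. Its groups were apart, with 101, 66.5 and 98.6 FPKM in S3_S libraries, against 111, 211 and 289 FPKM in S2 libraries, which adds no support to the class. Members did not all share the direction: the photosystem I subunit PSAH2, also picked after values were seen, had 253, 153 and 179 FPKM in S3_S libraries, against 84.1, 89.3 and 166 FPKM in S2 libraries. The entry for the photosystem II core protein CP47 (Bo3g155600) was listed at 0, 0 and 0 FPKM in S3_S libraries, against 6.15, 0 and 27.3 FPKM in S2 libraries, and no fold is given for it.

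**Figure D3:**
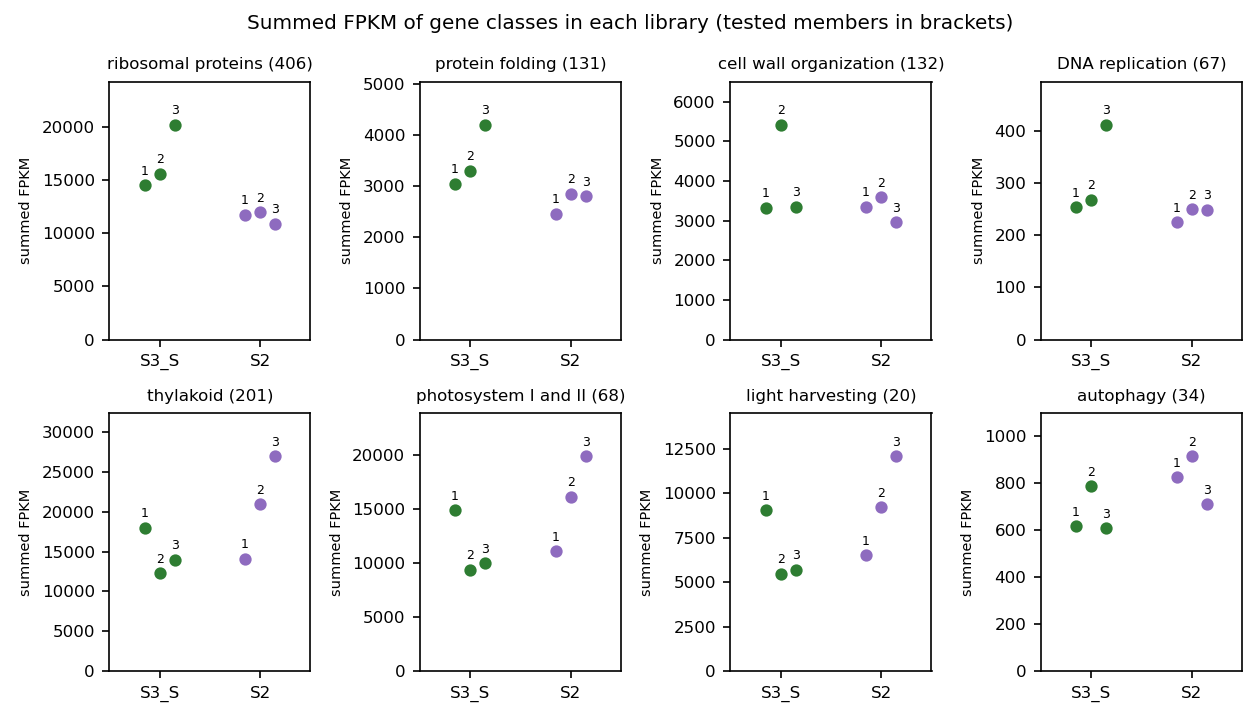
Summed FPKM of 8 gene classes in each library, S3_S left (green) and S2 right (purple), with the replicate number above each point and axes from 0. The 3 S3_S libraries lie above the 3 S2 libraries for ribosomal proteins, protein folding and DNA replication, where S3_S replicate 3 is highest, while the groups overlap for cell wall, thylakoid, photosystem, light-harvesting and autophagy genes.

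The Calvin cycle list had 1 tested member, so carbon fixation is given by single genes. The Rubisco small chain locus Bo4g137150;Bo4g137140;Bo4g137200, part of the enzyme that fixes carbon dioxide, had 576, 247 and 1109 FPKM in S3_S libraries, against 487, 1152 and 1562 FPKM in S2 libraries. Chloroplast fructose-bisphosphate aldolase 2 (Bo3g149690), of the Calvin cycle and chosen after its values were seen, had 266, 145 and 194 FPKM in S3_S libraries, against 239.6, 621 and 736 FPKM in S2 libraries. Both overlapped between the groups. Another aldolase superfamily gene, Bo2g133780 of the thylakoid list, had the opposite order without overlap, at 21.2, 24.6 and 25.4 FPKM in S3_S libraries, against 14.8, 14.7 and 14.9 FPKM in S2 libraries. Photorespiration genes, which recycle the product of oxygenation by Rubisco, had 8 of 10 members lower and a median of -0.21, which changed sign to 0.06 without S3_S replicate 2. AOAT2, in Arabidopsis an aminotransferase of the peroxisome, was among the 12 lowest genes, with 8.63, 4.46 and 4.86 FPKM in S3_S libraries, against 14.1, 21.8 and 30.9 FPKM in S2 libraries and a log2 fold change of -1.72 ± 0.35 (SE).

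**Figure D4:**
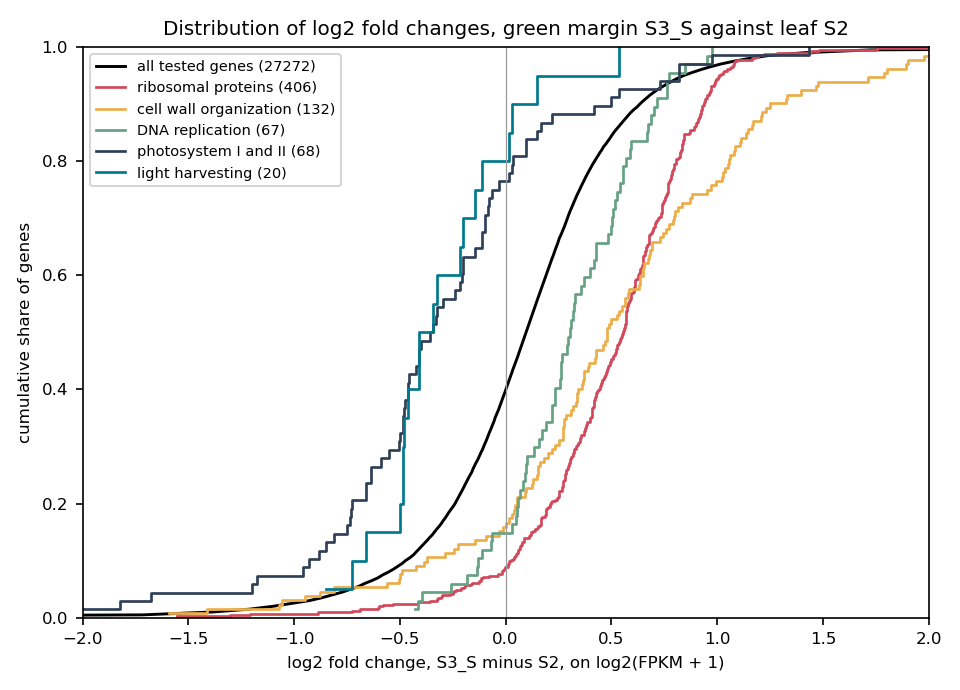
Cumulative share of genes (vertical axis) against the log2 fold change, S3_S minus S2 (horizontal axis, drawn from -2 to 2 with a few genes beyond it), for all 27272 tested genes and 5 classes. Ribosomal proteins and cell wall genes lie to the right of all genes (medians 0.55 and 0.48, against 0.10), and photosystem and light-harvesting genes to the left (medians -0.35 and -0.37).

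Flavonoid and chlorophyll biosynthesis had medians near 0. Flavonoid and anthocyanin genes had 4 of 8 tested members higher and 4 lower, with a median log2 fold change of 0.01. That median was -0.06 without S3_S replicate 3 and changed sign in 4 of 15 alternatives. The largest positive value was that of CIP7, in Arabidopsis a nuclear protein that binds the light-signalling repressor COP1 and promotes light-induced genes, with 18.7, 30 and 23 FPKM in S3_S libraries, against 9.99, 9.7 and 11.4 FPKM in S2 libraries. RHM1, which makes the rhamnose donor used on flavonols and cell wall pectin, had 8.5, 13.7 and 9.96 FPKM in S3_S libraries, against 5.31, 5.07 and 3.25 FPKM in S2 libraries. The groups of these genes were apart, at adjusted p of 0.577 in both under limma. The most abundant member, the protein kinase superfamily gene Bo1g011360, had 13.5, 11 and 7.46 FPKM in S3_S libraries, against 12.6, 25.6 and 35.9 FPKM in S2 libraries. There the groups overlapped and the log2 fold change was -1.07 ± 0.40 (SE; limma, adjusted p = 0.588). The deposited annotation gives these flavonoid terms to 13 entries, so the list is short. Some of the terms cover regulation, and the median does not show whether pigment synthesis differed.

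Chlorophyll biosynthesis had 8 of 15 members higher and 7 lower, with a median of 0.01. That median was -0.003 without S3_S replicate 3 and changed sign in 7 of 15 alternatives. CHLI2, a subunit of the magnesium chelatase at the entry to the chlorophyll branch, had 3.88, 4.08 and 6.2 FPKM in S3_S libraries, against 1.25, 2.46 and 2.59 FPKM in S2 libraries. Chlorophyll breakdown had 5 of 7 members lower and a median of -0.38, and of -0.17 without S3_S replicate 3. NOL, a chlorophyll b reductase that starts the breakdown, had 9.94, 7.45 and 10.2 FPKM in S3_S libraries, against 10.2, 15.6 and 19.2 FPKM in S2 libraries. ACD1, a pheophorbide a oxygenase that cleaves the chlorophyll ring, overlapped widely, with 47.9, 30.4 and 24.2 FPKM in S3_S libraries, against 17.7, 43.6 and 101 FPKM in S2 libraries. Its log2 fold change of -0.38 changed sign to 0.23 without S2 replicate 3. Carotenoid biosynthesis had 6 of 9 members lower and a median of -0.26, which was 0.02 without S2 replicate 3.

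Among the 12 lowest genes, SEN1 and a dikinase are known from starved or aging leaves. SEN1, which in Arabidopsis is induced by darkness and in senescence, had 23.6, 6.34 and 4.7 FPKM in S3_S libraries, against 40, 307 and 124 FPKM in S2 libraries, a log2 fold change of -3.53 ± 0.84 (SE; limma, adjusted p = 0.577). Pyruvate, phosphate dikinase (Bo1g056690;Bo1g056680), which in Arabidopsis helps move nitrogen out of aging leaves, had 1.6, 1.59 and 0.326 FPKM in S3_S libraries, against 1.82, 15.8 and 7.57 FPKM in S2 libraries. The groups of both genes were apart, but S2 values ranged widely. In S3_C libraries SEN1 had 55.9, 543 and 145 FPKM and the dikinase 7.58, 60.5 and 38.6 FPKM. The leaf senescence class as a whole had 11 of 18 members lower and a median of -0.09.

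Amino acid catabolism showed no common direction as a list, which was added after values were seen. Of its 14 tested members 7 had a higher and 7 a lower mean in S3_S, with a median of -0.01, and of -0.29 without S3_S replicate 3. The single enzymes below, other than CORI3 and PDS1, were picked after their values were seen, and show nothing of their pathways as a whole. Bo2g042260, a tyrosine transaminase family protein for the first step of tyrosine breakdown, had 14.4, 11.5 and 6.19 FPKM in S3_S libraries, against 22.2, 47.5 and 24.5 FPKM in S2 libraries. PDS1, the symbol that in Arabidopsis stands for the dioxygenase of the second step, had 1.46, 2.37 and 1.36 FPKM in S3_S libraries, against 7.29, 16.1 and 6.29 FPKM in S2 libraries, a log2 fold change of -1.91 ± 0.37 (SE; limma, adjusted p = 0.577). HGO, the homogentisate dioxygenase that acts next, had 2.7, 4.0 and 2.07 FPKM in S3_S libraries, against 8.01, 14.8 and 6.11 FPKM in S2 libraries. In all of these genes every margin library lay below every S2 library. CORI3, a further tyrosine transaminase family protein and a jasmonate-responsive gene in Arabidopsis, overlapped, with 162, 39.4 and 55.4 FPKM in S3_S libraries, against 87, 341 and 278 FPKM in S2 libraries.

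For branched-chain amino acids, the aminotransferase Bo5g010550 had 32.3, 19.9 and 18.4 FPKM in S3_S libraries, against 51.9, 125 and 41.4 FPKM in S2 libraries. MCCA, the alpha chain of methylcrotonyl-CoA carboxylase in leucine breakdown, had 16.9, 20.5 and 11.8 FPKM in S3_S libraries, against 32.3, 69.8 and 23.8 FPKM in S2 libraries. ETFQO, which passes electrons from these reactions to the respiratory chain, had 6.61, 8.48 and 3.63 FPKM in S3_S libraries, against 9.21, 11.8 and 10.2 FPKM in S2 libraries. Those 3 genes did not overlap between the groups, whereas IVD, isovaleryl-CoA dehydrogenase of the same pathway, did, with 36.4, 37 and 26 FPKM in S3_S libraries, against 54, 68.8 and 28.7 FPKM in S2 libraries.

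Autophagy genes, which deliver cell contents to the vacuole, had slightly lower means. Of 34 tested members 26 had a lower mean in S3_S, with a median log2 fold change of -0.12, and between -0.19 and -0.09 when each library was left out in turn. The autophagy-related protein Bo2g104590 had 45.1, 63.5 and 44.4 FPKM in S3_S libraries, against 102, 134 and 99.6 FPKM in S2 libraries, a log2 fold change of -1.12 ± 0.24 (SE; limma, adjusted p = 0.577). APG12 is a ubiquitin-like protein of the conjugation system that builds the autophagosome. The entry of that name with the smaller p (of 2) had 13.5, 18.6 and 9.04 FPKM in S3_S libraries, against 23.1, 30.1 and 31 FPKM in S2 libraries. The values of these genes did not overlap between the groups, and 2 members (5.88%) were lower at an unadjusted p under 0.05, beside 2.84% of all genes.

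Sugar and nitrogen handling also held genes among the 12 largest in each direction. The SWEET sugar transporter Bo5g034370, of a family that lets sugars cross membranes down their gradient, had 49.3, 44.3 and 18 FPKM in S3_S libraries, against 3.7, 5.71 and 15.9 FPKM in S2 libraries. ASN2, an asparagine synthetase that stores nitrogen in amide form, had 43.7, 48.9 and 11 FPKM in S3_S libraries, against 5.59, 4.34 and 10.9 FPKM in S2 libraries. S3_S replicate 3 lay next to S2 replicate 3 in both, and the log2 fold changes were 2.12 and 2.00, and 2.56 and 2.66 without that margin library. UDP-glucose 4-epimerase 2 (Bo1g037320), which supplies galactose units, had 6.5, 14 and 2.79 FPKM in S3_S libraries, against 26, 42.8 and 23.4 FPKM in S2 libraries. LSF1, which in Arabidopsis takes part in starch breakdown at night, had 23.5, 30.5 and 23.4 FPKM in S3_S libraries, against 48.2, 37.9 and 33.3 FPKM in S2 libraries, and the 26 tested starch genes had a median of 0.08.

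The other genes among the 12 highest had fewer shared features. The cysteine proteinase inhibitor Bo8g044690 owed its place to S3_S replicate 3, with 9.08, 6.2 and 160.5 FPKM in S3_S libraries, against 0, 0 and 3.36 FPKM in S2 libraries. The purine permease PUP5 had 3.31, 13.1 and 21.2 FPKM in S3_S libraries, against 1.94, 1.04 and 2.48 FPKM in S2 libraries. Bo4g060000, a protein with a double Clp-N motif, had 7.09, 2.67 and 7.76 FPKM in S3_S libraries, against 0.662, 0.453 and 0.922 FPKM in S2 libraries. It was low in both groups and yet separated them, as did AtRABA1g, a small GTPase of membrane traffic, with 6.35, 6.64 and 7.51 FPKM in S3_S libraries, against 0.0528, 4.47 and 0.589 FPKM in S2 libraries.

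The other genes among the 12 lowest were as mixed. BPS1, the symbol of BYPASS1 in Arabidopsis, which restrains a mobile signal from the root, had 3.98, 1.24 and 1.65 FPKM in S3_S libraries, against 28.2, 101 and 17.8 FPKM in S2 libraries, a log2 fold change of -3.63 ± 0.65 (SE). Bo7g003870, an RNI-like superfamily protein, had 24.4, 15.2 and 3.39 FPKM in S3_S libraries, against 101, 217 and 54.3 FPKM in S2 libraries. Bo4g046140, a haloacid dehalogenase-like hydrolase, had 25.2, 13.1 and 14.4 FPKM in S3_S libraries, against 48.4, 189.9 and 163 FPKM in S2 libraries. The groups of these genes did not overlap, which the rule for naming them required.

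A B-cell receptor-associated protein 31-like gene (Bo8g108590), of a family of endoplasmic reticulum proteins, had 7.85, 0.32 and 2.23 FPKM in S3_S libraries, against 36.2, 21.6 and 21.1 FPKM in S2 libraries. The copper amine oxidase Bo2g105250, which oxidizes polyamines, had 3.04, 2.95 and 2.28 FPKM in S3_S libraries, against 5.47, 14.9 and 51.5 FPKM in S2 libraries. Centrin 2 (CEN2), a calcium-binding protein, had 46.2, 28.1 and 11.4 FPKM in S3_S libraries, against 63.5, 113 and 76.5 FPKM in S2 libraries. Apart from Bo7g031620 and Bo1g010620, the 22 genes named by this rule had limma adjusted p between 0.577 and 0.586. All 24 kept the sign of their log2 fold change under each of the 15 alternative settings in which they were tested. The rule required groups without overlap, so leaving out 1 library could not reverse any sign. Some other settings changed only the spread and not the estimate. The kept signs therefore add no support for these genes.

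The listed hormone classes other than auxin had medians between -0.04 and 0.06, beside 0.10 for all genes. Abscisic acid response had 42 of 81 members higher and a median log2 fold change of 0.03, jasmonate response 11 of 19 and 0.06, salicylate response 9 of 19 and -0.04, and ethylene response 7 of 16 and -0.03. Among stress classes, cold response had 27 of 45 members higher and a median of 0.22, which was 0.08 without S3_S replicate 3, heat response 31 of 42 and 0.15, and water deprivation response 28 of 52 and 0.03. Of all these members 0 were called. ALDH7B4, an aldehyde dehydrogenase that detoxifies products of stress in Arabidopsis, had 99.5, 94.2 and 67.9 FPKM in S3_S libraries, against 185, 397 and 154 FPKM in S2 libraries, without overlap. COR78, a cold and drought marker, had 665, 897 and 515 FPKM in S3_S libraries, against 159.8, 226 and 571 FPKM in S2 libraries, where S2 replicate 3 reached the range of the margin. A lipoxygenase (Bo6g079880, the entry with the smaller p of 2), of the pathway to jasmonate, had 21.5, 3.42 and 88.2 FPKM in S3_S libraries, against 64.8, 277 and 202 FPKM in S2 libraries. A catalase that was low in the margin (Bo3g167210), which breaks down hydrogen peroxide, had 1.03, 0.868 and 4.39 FPKM in S3_S libraries, against 4.25, 28.2 and 14.5 FPKM in S2 libraries, and the most abundant catalase (Bo7g061480) had 1000.3, 1068 and 941 FPKM in S3_S libraries, against 1271, 1276 and 1618 FPKM in S2 libraries.

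Marker genes bear on the tissue in each library only in part, because most of them also belong to classes above. LHCA4, PSBQ and PSBR are in the photosystem class, and CESA4 and CESA8 in the cell wall class. Their directions partly repeat those classes and are not separate evidence on tissue. The mesophyll markers LHCA4, PSBQ, PSBR and GAPB were abundant in all 6 libraries, and 4 of 4 had a lower mean in S3_S, with a summed level of 3303, 1998 and 2230.4 FPKM in S3_S libraries, against 2477, 3769 and 5432 FPKM in S2 libraries. The vascular markers XCP1, CESA8 and CESA4, of xylem vessels and secondary walls, were low throughout and 3 of 3 had a higher mean in S3_S, with a summed level of 2.0, 2.86 and 12.2 FPKM in S3_S libraries, against 1.6, 2.53 and 0.461 FPKM in S2 libraries. S3_S replicate 3, which had the highest ribosomal and replication sums of the 6 libraries, also had the highest vascular sum, and the part of vascular tissue in the class differences was not tested. The guard cell, epidermis and meristem lists had 0 tested members each, so those cell types could not be followed.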

How the data were processed

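Poly(A) RNA of 12 kale leaf libraries was sequenced, 3 in each of 4 groups, and 6 libraries (S3_S and S2) were compared. The authors deposited FPKM per gene and library. The tools HISAT2 2.0, StringTie 1.3.0 and Bowtie 0.12.2 are named, without their roles, per the submitters' processing notes. Genome build and annotation release were not given in the sources used here. Entries are assembled loci: 774 of those tested merge several annotated genes, and a name can stand on more than 1 entry.

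Genes reaching 1 FPKM in 3 or more of 12 libraries were fitted on log2(FPKM + 1) with limma 3.58.1 in R 4.3.3, with group means of the 6 libraries, a trend in the prior variance, two-sided moderated tests and Benjamini-Hochberg adjustment over 27272 genes. The scripts were tested on simulated data. Relative depth came from the spacing of values under 0.15 FPKM. Equal values above 0 within a group made up 0% of genes in every pair of libraries.

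Gene classes (38) and marker lists (5) were taken from gene ontology terms, Arabidopsis identifiers and symbols in the deposited annotation (13814 tested genes have terms), and 11 further lists were added after values were seen. The members, lists and tests were chosen with earlier results of these data known. Classes are described by counts and medians, with no test. Genes were named by rule: in each direction the 12 largest log2 fold changes among informatively named genes whose groups did not overlap and whose higher group averaged 5 FPKM or more, called genes first and then genes at an unadjusted p under 0.05. To these were added each class's most abundant member and its 2 members with the smallest p; other genes were chosen after their values were seen. A potassium channel symbol that matched a thiolase was left out of the guard cell list. Alternatives changed the filter, the pseudocount (0.1 and 0.5), the scaling, the libraries fitted, the prior and the replicate block. No sequences or coordinates are given.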

Additional observations from a re-analysis of the deposited data

How the results depend on the processing

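Calls of single genes depended on the settings. There were 2 calls, both higher, and also 2, both higher, with a pseudocount of 0.1 or 0.5 and with a robust prior. There was 1 call, higher, with median-of-ratios scaling. There were 0 calls, of any direction, with all 12 libraries in the fit, with no filter, with a filter of at least 5 FPKM in at least 3 libraries, and with median-of-ratios scaling without S3_S replicate 3, an alternative chosen after seeing the data. Leaving out each library in turn gave 0 to 1 calls, with 0 to 1 higher and 0 to 1 lower: Bo3g008980 was called lower without S3_S replicate 1, Bo1g010620 lower without S2 replicate 1, and Bo9g065530 higher without S2 replicate 3. At an unadjusted p under 0.05, those fits gave 793 to 1765 genes higher and 471 to 1212 lower. The fit of all 12 libraries gave 556 higher and 340 lower, the 5 FPKM filter 514 lower, and median-of-ratios scaling without S3_S replicate 3 gave 887 higher. Same-numbered S3_S and S2 libraries deviated from their group means with correlations of -0.05, 0.20 and -0.08. Pairs of unlike number lay between -0.19 and 0.19. Whether same-numbered libraries share more than a number cannot be told from these values. With the replicate block there were 0 calls, with 0 higher and 0 lower, and 1141 genes higher and 710 lower at an unadjusted p under 0.05. The cause of these differences was not tested.

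Of 97 named genes put through the alternatives, ACD1 changed sign without S2 replicate 3 (log2 fold changes between -0.998 and 0.23 with 1 library left out). Bo7g114380 did so without S3_S replicate 2 (between -0.78 and 1.19), and no other of the 97 did. Some genes named above, such as Bo5g093110 of the auxin class, were not among the 97. The medians of ribosomal, cell wall, cellulose synthase, light-harvesting, photosystem, thylakoid and autophagy genes had 1 sign each in all 15 alternatives, but their size moved: with no filter the cell wall median was 0.06 and the cellulose synthase median 0.13, against 0.48 and 0.63, and that of xyloglucan and expansin genes was 0.27, against 0.79. That of DNA replication was -0.03 at its lowest. The fit of all 12 libraries, the replicate block and the robust prior alter only the spread, so they could not move a class median and add no support for the kept signs. With 3 libraries a group and 1 margin library apart from the rest, small differences of single genes could not be resolved, and depth in reads is unknown.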

Other observations

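Some entries were listed at 0 in single libraries while their other libraries were level with each other, which was noticed after values were seen. Bo3g008980, with no product description, had 48.1, 0 and 0 FPKM in S3_S libraries, against 37.1, 35 and 28.6 FPKM in S2 libraries, and 35.7, 24.9 and 34.3 FPKM in S3_C libraries. Bo9g065530, annotated with protein dimerization activity, had 26.6, 32.3 and 34.7 FPKM in S3_S libraries, against 0, 0 and 22 FPKM in S2 libraries, and 0, 0 and 0 FPKM in S3_C libraries. Bo7g031620, which was at 0 in all S2 libraries, was also at 0 in S1 replicate 2 and in no S3_C library.

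The NF-Y transcription factor binds CCAAT sequences in promoters. Of its A subunits, 2 entries with lower values in the margin were picked after values were seen. The other members of the family were not counted, so nothing is said of the family. NF-YA7 had 6.15, 4.22 and 3.73 FPKM in S3_S libraries, against 11.2, 9.66 and 7.37 FPKM in S2 libraries. The entry named NF-YA9 with the smaller p (of 2) had 6.78, 6.91 and 6.33 FPKM in S3_S libraries, against 9.1, 13.2 and 10.3 FPKM in S2 libraries. Both pairs of groups were apart, at limma adjusted p of 0.577 each, so neither was called.

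The citrate cycle enzymes named here lay on opposite sides, but the first was picked after its values were seen and the second for a small p. Citrate synthase (Bo8g092880;Bo8g092900), which opens the cycle, had 7.16, 6.51 and 5.41 FPKM in S3_S libraries, against 8.9, 10.9 and 8.61 FPKM in S2 libraries. The E1 component of 2-oxoglutarate dehydrogenase (Bo3g097740) had 48.9, 50.1 and 46.5 FPKM in S3_S libraries, against 38.3, 31.2 and 32.1 FPKM in S2 libraries. The 52 tested genes of the cycle had 32 higher, 20 lower and a median log2 fold change of 0.08, near the 0.10 of all genes. The groups did not overlap for 8 higher members (15.4%) and 3 lower ones (5.77%), beside 11.2% and 4.63% of all genes. CAD4, of lignin biosynthesis, had 41.8, 52.2 and 41.5 FPKM in S3_S libraries, against 36.1, 30.9 and 29.7 FPKM in S2 libraries, and 5 of 6 tested lignin genes had a higher mean in S3_S with a median of 0.50, and of 0.26 without S3_S replicate 3.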
